A study of Homo sapiens with 4 samples.

Results

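Hypoxia and glucose use were followed here through 10 genes whose products bring glucose into the cell, commit it to glycolysis, decide between lactate and mitochondrial use, handle the resulting acid, or signal for new vessels. The genes were SLC2A1, SLC2A3, HK1, HK2, PFKP, LDHA, PDK1, CA9, CA12 and VEGFA, found by Ensembl gene ID in an expression table of 17041 genes, and all 10 were in it. The cells were A549, a human lung adenocarcinoma line grown in DMEM with serum and antibiotics. In 2 RBM10 knockdown libraries the cells had been transduced with a lentivirus encoding 1 shRNA against RBM10, whose product binds RNA and regulates splicing, and kept under puromycin to obtain stable populations. In 2 RBM10 wild-type libraries the labels give only the wild-type genotype, so whether these cells received a control construct or puromycin is not stated. The labels name no oxygen level other than that of a humidified incubator with CO2. Poly-A RNA was sequenced with a stranded kit in 1 batch. Nothing in the labels says that libraries of a group came from separate cultures, so p-values measure the spread between libraries, which may be technical. In bulk RNA, fewer cells with a transcript and less transcript per cell cannot be told apart.

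As background, cells short of oxygen stabilise the HIF alpha subunits HIF1A and EPAS1, which pair with ARNT and bind a short core motif in DNA. Their known targets include genes for glucose transporters, most glycolytic enzymes, lactate dehydrogenase A, pyruvate dehydrogenase kinase 1, the membrane carbonic anhydrases and VEGFA. Lung adenocarcinoma cells often use much glucose even with oxygen present, and growth signals and MYC act on several of the same genes.

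The targeted gene, RBM10, lies on chromosome X (47144869 to 47186813, hg38). Its level was 11.6 and 10.9 RPKM in the knockdown libraries, against 35.5 and 40.8 RPKM in the wild-type libraries. Knockdown cells held 29.5% of the wild-type mean (log2 change -1.67, SE 0.11, limma BH adjusted p = 1.01e-05), as labelled. NDUFB11, annotated opposite RBM10, was at 77.2 and 74.2 RPKM in knockdown, against 74.0 and 80.2 RPKM in wild type, and since the use of strand in counting is not given in the sources used here, its part in the RBM10 values was not tested. Depth ranged from 84.5% to 95.6% of the deepest library in knockdown and from 99.0% to 100% in wild type, and 9967 and 10113 genes reached 1 RPKM in knockdown, against 9629 and 9502 in wild type. RPKM is a read count set in relation to gene length and sequencing depth. The 6 epithelial markers chosen for A549 (KRT8, KRT18, KRT19, KRT7, EPCAM and CDH1) all had values and summed to 4367 and 4331 RPKM in knockdown, against 2364 and 2699 RPKM in wild type. Most of the sum came from KRT7, KRT18 and KRT8 (1850, 1793 and 677 RPKM on average in knockdown). At a limma BH adjusted p under 0.05, 5 of the 6 were higher in knockdown, beside 15.3% of all tested genes. CDH1 did not pass (log2 change 0.12, limma BH adjusted p = 0.497). Of 9 markers of leukocytes, endothelium, fibroblasts and mural cells, 4 had values (CD14, PECAM1, LUM and PDGFRB), none above 0.391 RPKM (PTPRC, CD3E, CDH5, VWF and DCN had no value), summing to 0.597 and 0.569 RPKM in knockdown and 0.194 and 0.295 RPKM in wild type. These sums moved with the groups, and their part in the results below was not tested.

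Both glucose transporter genes rose in knockdown cells, SLC2A3 by 3.43-fold and SLC2A1 by 1.49-fold, and both carbonic anhydrase genes fell, CA9 to 34.3% and CA12 to 71.4% of their wild-type means. The genes of the steps between, HK1, PFKP and LDHA, did not pass the test, nor did VEGFA. HK2 and PDK1 were under 1 RPKM in every library and stayed outside the main test, which took genes that averaged at least 1 RPKM in knockdown or in wild type. Of the 8 members tested, 2 were thus higher and 2 lower at an adjusted p under 0.05, while 22.3% of the 10182 genes tested passed, 15.3% higher and 7.03% lower. The median log2 change over all tested genes was 0.02. The groups did not overlap in 9 of the 10 members, VEGFA being the exception, and in 61.5% of all tested genes. With 2 libraries a group, absence of overlap was thus common in the table as a whole.

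**Figure D1:**
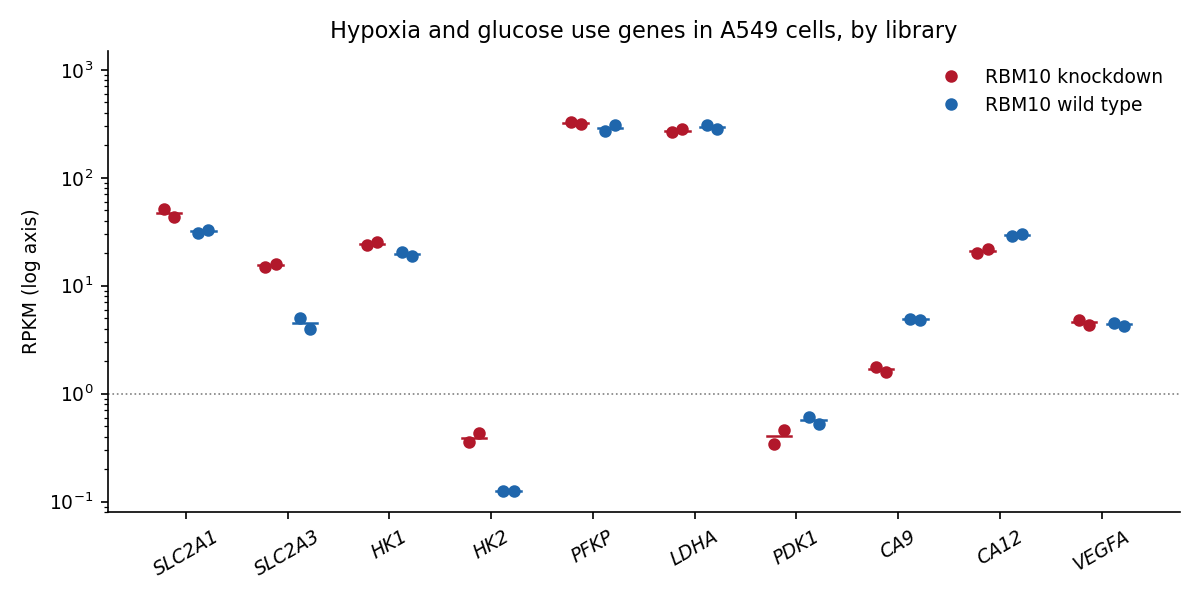
RPKM on a log axis of the 10 members in each library (points; knockdown red and left, wild type blue and right) with the group mean (line); the dotted line marks 1 RPKM, the minimum mean for testing. SLC2A3 and HK2 show the widest upward gaps between groups and CA9 the widest downward gap, at levels that span from 0.124 RPKM (HK2) to 331 RPKM (PFKP).

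**Figure D2:**
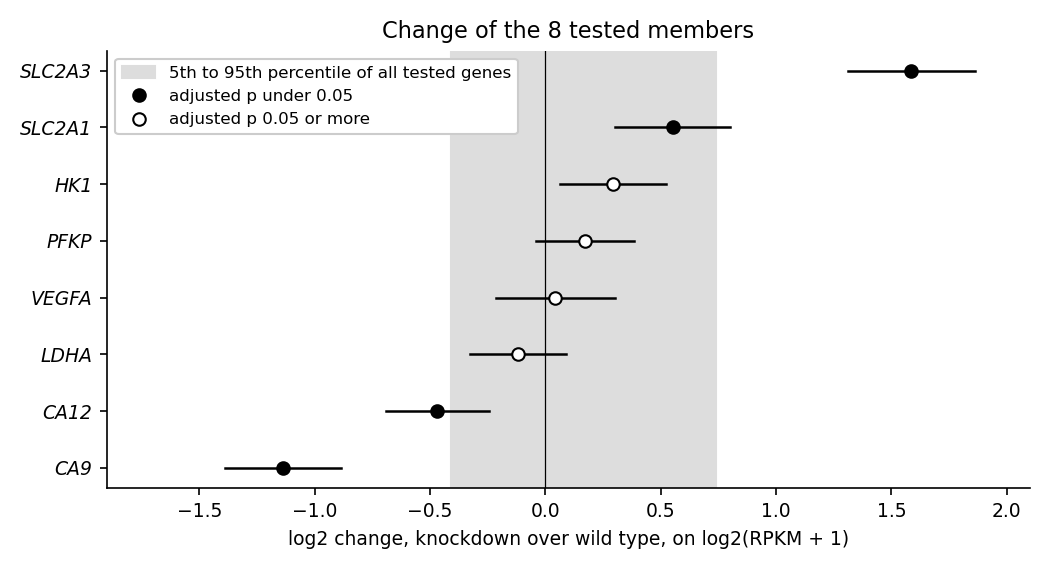
Log2 change, knockdown over wild type, of the 8 tested members with 95% intervals; filled points have a limma BH adjusted p under 0.05, and the grey band holds the 5th to 95th percentile of all tested genes (-0.41 to 0.74). SLC2A3 lies above the band, CA9 and CA12 lie below it, and SLC2A1 passed the test while lying inside the band.

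Glucose enters most cells through facilitative transporters of the SLC2 (GLUT) family. SLC2A1 encodes GLUT1, the widespread basal transporter (ENSG00000117394, chromosome 1, 42925375 to 42959176, minus strand, hg38). It was at 51.8 and 43.3 RPKM in the knockdown libraries, against 30.9 and 33.1 RPKM in the wild-type libraries. Both knockdown libraries lay above both wild-type libraries, and the knockdown libraries differed from each other more than the wild-type ones did. The means were 47.6 ± 5.97 RPKM in knockdown and 32.0 ± 1.51 RPKM in wild type (SD, n = 2 each, as for all means below; log2 change 0.55, SE 0.11, limma BH adjusted p = 0.00675), with a 95% interval from 0.30 to 0.80. Without knockdown replicate 1 the log2 change was 0.43 and no longer passed (adjusted p = 0.061 by limma). An antisense gene, SLC2A1-AS1, overlaps the locus, other annotated genes lie opposite HK1, HK2, PDK1, CA9 and VEGFA, and the limit on strand given for RBM10 holds for these too.

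SLC2A3 encodes GLUT3, a transporter with high affinity for glucose that is best known from neurons (ENSG00000059804, chromosome 12, 7919230 to 7936275, minus strand). Its level was 15.0 and 15.9 RPKM in the knockdown libraries, against 5.03 and 3.97 RPKM in the wild-type libraries. The 2 knockdown libraries lay close together and far above the wild-type ones. The means were 15.5 ± 0.591 RPKM in knockdown and 4.50 ± 0.752 RPKM in wild type (log2 change 1.59, SE 0.12, limma BH adjusted p = 2.69e-05), with a 95% interval from 1.31 to 1.86. The smallest whole read numbers that give these values were 2492 and 2977 in knockdown and 978 and 779 in wild type. SLC2A14, a near-identical copy of SLC2A3 with which reads can be shared, stayed under the filter, at 0.840 and 0.729 RPKM in the knockdown libraries, against 0.235 and 0.232 RPKM in the wild-type libraries. With no filter on low values its log2 change was 0.53 (limma adjusted p = 0.0164), and on recovered reads 1.73 (voom adjusted p = 0.00071). The authors' way of assigning such reads is not given here, so the split between both genes is uncertain.

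The makeup of the pair restates the changes of SLC2A1 and SLC2A3, and the uncertain split with SLC2A14 bears on it. SLC2A3 held 22.5% and 26.8% of the summed RPKM of SLC2A1 and SLC2A3 in knockdown and 14.0% and 10.7% in wild type (24.6% ± 3.04 and 12.4% ± 2.32, SD, n = 2 each). The groups did not overlap, and the exact two-sided permutation test gave p = 0.33, the smallest that 2 against 2 libraries allow. The sum of both genes was 66.8 and 59.2 RPKM in knockdown and 36.0 and 37.1 RPKM in wild type. SLC2A1 stayed the more abundant of the pair in all 4 libraries.

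**Figure D3:**
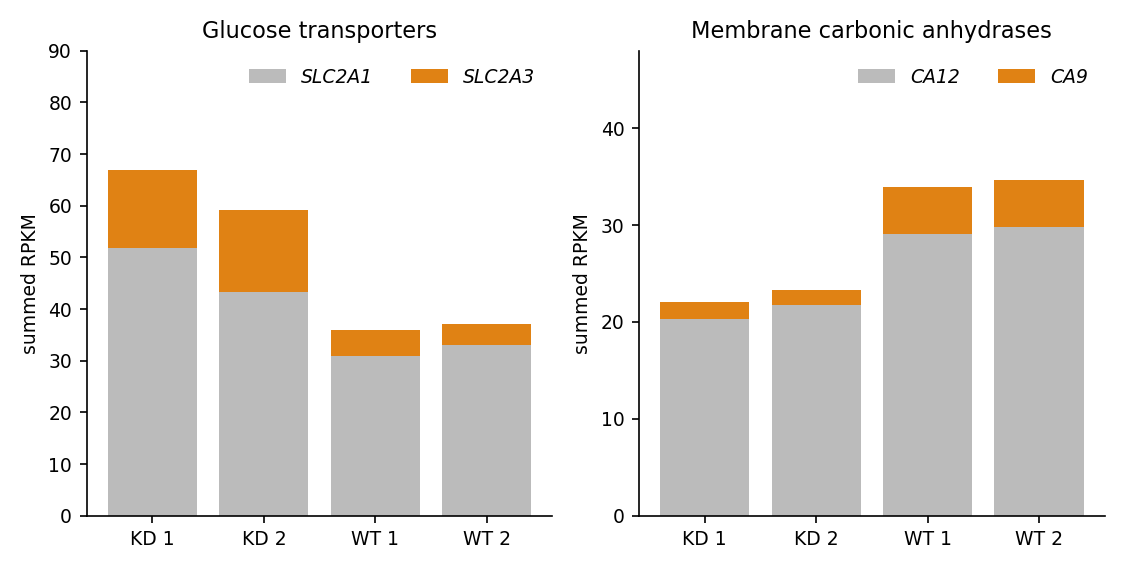
Stacked RPKM per library (KD, knockdown; WT, wild type) of SLC2A1 (grey) and SLC2A3 (orange) on the left, and of CA12 (grey) and CA9 (orange) on the right. The transporter sum is higher in the knockdown libraries and its SLC2A3 part is larger, while the carbonic anhydrase sum is lower there and its CA9 part is smaller.

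Of 13 other glucose transporter genes, 10 were in the table and only 2, SLC2A6 and SLC2A8, reached the filter. Neither passed the test. SLC2A6, a lysosomal member of the family, was at 5.84 and 4.65 RPKM in the knockdown libraries, against 3.57 and 4.43 RPKM in the wild-type libraries (log2 change 0.32, SE 0.14, limma BH adjusted p = 0.128). SLC2A8 averaged 4.19 ± 0.296 RPKM in knockdown and 4.54 ± 0.247 RPKM in wild type (log2 change -0.10, SE 0.11, limma BH adjusted p = 0.588). With no filter on low values, SLC2A14 and SLC2A12 passed and were higher in knockdown (limma adjusted p = 0.0164 and 0.0223, with 7.18% of 17041 genes higher there). On recovered reads these 2 and SLC2A9 passed, all higher (voom adjusted p = 0.00071, 0.00896 and 0.0061), where 20.4% of 13959 genes passed in either direction. In the flat-tolerance version of the read recovery, described below, 2 genes of this list passed as higher. SLC2A12 rested on 32 and 42 reads in knockdown and 8 and 11 in wild type. For SLC2A9 the reads were 46 and 91 in knockdown and 12 and 19 in wild type. In SLC2A14, SLC2A12 and SLC2A9 alike, both knockdown libraries lay above both wild-type libraries, as in 35.8% of all genes in the table. SLC2A9 and SLC2A12 were named after their values were seen.

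Hexokinases phosphorylate glucose and so keep it in the cell. HK1, the ubiquitous form bound to mitochondria (ENSG00000156515, chromosome 10, 69269984 to 69401884, plus strand), was at 23.6 and 25.3 RPKM in the knockdown libraries, against 20.6 and 19.0 RPKM in the wild-type libraries. The groups did not overlap but the difference did not pass (log2 change 0.29, SE 0.10, limma BH adjusted p = 0.0707; 95% interval 0.06 to 0.52). It passed under cyclic loess normalization, with a log2 change of 0.33 and an adjusted p of 0.0448 in limma.

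HK2, the form that insulin and HIF are known to induce (ENSG00000159399, chromosome 2, 74833981 to 74893359, plus strand), was scarce. It was at 0.357 and 0.430 RPKM in the knockdown libraries, against 0.124 and 0.126 RPKM in the wild-type libraries, from 110 and 150 reads in knockdown and 45 and 46 reads in wild type. The knockdown mean was 3.14 times the wild-type mean. The main fit left HK2 out for its low level. With no filter on low values its log2 change was 0.31 (limma, BH adjusted p = 0.0239), a scale on which a low gene's change is understated, and 9.07% of 17041 genes passed there, 7.18% higher and 1.89% lower. On recovered whole reads (limma's voom) the log2 change was 1.64 (adjusted p = 0.00183), where 20.4% of 13959 genes passed in either direction. HK2 made up 1.49% and 1.67% of the summed RPKM of HK1 and HK2 in knockdown and 0.599% and 0.659% in wild type, so HK1 held nearly all of the pair in every library (exact two-sided permutation p = 0.33, the smallest possible). A further hexokinase outside the members, HKDC1, was far more abundant than HK2, at 15.8 and 17.6 RPKM in the knockdown libraries, against 9.84 and 9.42 RPKM in the wild-type libraries. It rose in knockdown (log2 change 0.73, SE 0.11, limma BH adjusted p = 0.00112).

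PFKP encodes the platelet-type phosphofructokinase, the enzyme of the committed step of glycolysis (ENSG00000067057, chromosome 10, 3066333 to 3137712, plus strand). In knockdown it was the member with the highest level, while in wild type LDHA averaged more (296 RPKM, against 288 RPKM for PFKP). PFKP was at 331 and 316 RPKM in the knockdown libraries, against 270 and 305 RPKM in the wild-type libraries. The lower knockdown library exceeded the higher wild-type library by less than the wild-type libraries differed from each other. The change did not pass (log2 change 0.17, SE 0.10, limma BH adjusted p = 0.23; 95% interval -0.04 to 0.39), though it did under quantile and cyclic loess normalization, with log2 changes of 0.26 and 0.28 and adjusted p of 0.0401 and 0.0305 in limma. The other phosphofructokinase genes, PFKL and PFKM, were at 20.2 ± 2.42 and 19.3 ± 1.37 RPKM in knockdown and at 16.3 ± 1.68 and 21.3 ± 1.38 RPKM in wild type (SD, n = 2 each), and neither passed (limma adjusted p = 0.115 and 0.407).

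LDHA, the lactate dehydrogenase subunit that favours lactate formation (ENSG00000134333, chromosome 11, 18394388 to 18408425, plus strand), was at 263 and 281 RPKM in the knockdown libraries, against 309 and 283 RPKM in the wild-type libraries. The knockdown libraries lay below the wild-type ones by a margin smaller than the spread within either group. The difference did not pass (log2 change -0.12, SE 0.09, limma BH adjusted p = 0.393), and its 95% interval ran from -0.33 to 0.09. PDK1, a kinase that holds pyruvate dehydrogenase inactive (ENSG00000152256, chromosome 2, 172555373 to 172608669, plus strand), was at 0.344 and 0.460 RPKM in the knockdown libraries, against 0.607 and 0.529 RPKM in the wild-type libraries. These values rested on 72 and 109 reads in knockdown and 149 and 131 reads in wild type. PDK1 was lower in both knockdown libraries, but with no filter the change of -0.16 did not pass (limma, BH adjusted p = 0.216).

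CA9 and CA12 encode carbonic anhydrases whose active site faces the outside of the cell, where they speed the conversion of CO2 to bicarbonate and protons. CA9 is among the most widely used HIF target genes (ENSG00000107159, chromosome 9, 35673856 to 35681159, plus strand). It was at 1.77 and 1.59 RPKM in the knockdown libraries, against 4.94 and 4.86 RPKM in the wild-type libraries. Each group was tight and the groups lay far apart. The means were 1.68 ± 0.133 RPKM in knockdown and 4.90 ± 0.0584 RPKM in wild type (log2 change -1.14, SE 0.11, limma BH adjusted p = 0.000108), with a 95% interval from -1.39 to -0.89. Reads behind these values numbered 88 and 89 in knockdown and 287 and 285 in wild type. ARHGEF39 overlaps CA9 on the opposite strand and was at 6.04 and 5.77 RPKM in knockdown and 4.83 and 5.43 RPKM in wild type, so it was higher where CA9 was lower. Its part in the CA9 values was not tested.

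CA12 is also known as an estrogen-responsive gene in breast (ENSG00000074410, chromosome 15, 63321378 to 63382161, minus strand). It was at 20.3 and 21.7 RPKM in the knockdown libraries, against 29.0 and 29.8 RPKM in the wild-type libraries. The groups lay apart by several times their own spread. The means were 21.0 ± 1.04 RPKM in knockdown and 29.4 ± 0.559 RPKM in wild type (log2 change -0.47, SE 0.10, limma BH adjusted p = 0.00851), with a 95% interval from -0.69 to -0.25. Without knockdown replicate 1 its log2 change of -0.42 no longer passed (limma adjusted p = 0.0729). CA9 made up 8.04% and 6.80% of the summed RPKM of CA9 and CA12 in knockdown and 14.5% and 14.0% in wild type (7.42% ± 0.883 and 14.3% ± 0.378, SD, n = 2 each; exact two-sided permutation p = 0.33, the smallest possible). CA12 was the larger of the pair in every library, and the sum was 22.1 and 23.3 RPKM in knockdown and 34.0 and 34.7 RPKM in wild type.

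Other carbonic anhydrases did not share 1 direction. Of 13 listed, 7 were in the table and 3 were tested, with 1 higher, 1 lower and 1 not called (median log2 change 0.06, against 0.02 over all tested genes). Over all tested genes, 15.3% were higher and 7.03% lower. CA2, a fast cytosolic form, averaged 1.16 ± 0.196 RPKM in knockdown and 0.544 ± 0.0893 RPKM in wild type (log2 change 0.48, SE 0.12, limma BH adjusted p = 0.0163), and it lost the call under quantile normalization, where its log2 change was 0.19. CA2 entered the test only through its knockdown mean, and with no filter on low values it did not pass (limma adjusted p = 0.0576). CA8, a relative without carbonic anhydrase activity, averaged 1.79 ± 0.0360 RPKM in knockdown and 3.54 ± 0.0943 RPKM in wild type (log2 change -0.70, SE 0.11, limma BH adjusted p = 0.00171). Among 6 tested genes of acid and bicarbonate transport, the anion exchanger gene SLC4A2 fell, at 36.5 ± 1.00 RPKM in knockdown and 56.6 ± 5.93 RPKM in wild type (log2 change -0.62, SE 0.10, limma BH adjusted p = 0.00278). SLC4A3, another exchanger of the family, rose, at 1.49 ± 0.00784 RPKM in knockdown and 0.799 ± 0.0380 RPKM in wild type (log2 change 0.47, SE 0.11, limma BH adjusted p = 0.0122), a call lost under quantile normalization at a log2 change of 0.29. SLC4A3 too entered the test only through its knockdown mean.

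VEGFA encodes the main growth factor of blood vessels and is a classic HIF target (ENSG00000112715, chromosome 6, 43770184 to 43786487, plus strand). It was at 4.86 and 4.29 RPKM in the knockdown libraries, against 4.54 and 4.27 RPKM in the wild-type libraries. The second knockdown library lay between both wild-type ones. The log2 change was near 0 (log2 change 0.04, SE 0.11, limma BH adjusted p = 0.824), with a 95% interval from -0.21 to 0.30, and its sign turned under quantile normalization (-0.05). In the VEGF family and its receptors, 2 of 5 tested genes rose and 1 fell (median log2 change 0.29), beside 15.3% higher and 7.03% lower of all tested genes. NRP2, a co-receptor best known for VEGFC, averaged 12.8 ± 0.921 RPKM in knockdown and 4.80 ± 0.481 RPKM in wild type (log2 change 1.25, SE 0.12, limma BH adjusted p = 7.67e-05). FLT4, the VEGFC receptor, averaged 1.37 ± 0.169 RPKM in knockdown and 0.682 ± 0.0288 RPKM in wild type (log2 change 0.49, SE 0.11, limma BH adjusted p = 0.0118), and its call was lost under quantile normalization (log2 change 0.28). FLT4 entered the test only through its knockdown mean. NRP1, the co-receptor of VEGFA, averaged 7.94 ± 0.654 RPKM in knockdown and 12.1 ± 1.18 RPKM in wild type (log2 change -0.55, SE 0.12, limma BH adjusted p = 0.00876) and did not pass without knockdown replicate 1 (-0.47).

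Beyond the members, 142 genes of the same pathways were listed by role, 124 were in the table and 90 were tested. Of these, 21 were higher and 9 lower in knockdown, beside 15.3% and 7.03% of all tested genes. Among the 21, PFKFB4, CA2, SLC4A3 and FLT4 entered the test only through their knockdown means, which favours genes that rise. The glycolytic enzymes went both ways. Of 14 tested, 3 rose, 3 fell and 8 did not pass (median log2 change -0.14). ENO3, the enolase typical of muscle, averaged 36.5 ± 1.26 RPKM in knockdown and 12.1 ± 0.695 RPKM in wild type (log2 change 1.52, SE 0.10, limma BH adjusted p = 1.11e-05), and ENO2, the enolase typical of neurons, averaged 17.2 ± 0.0427 RPKM in knockdown and 10.4 ± 0.0171 RPKM in wild type (log2 change 0.68, SE 0.10, limma BH adjusted p = 0.0012). ENO1, the common enolase, went the other way, at 1018 ± 32.5 RPKM in knockdown and 1253 ± 38.7 RPKM in wild type (log2 change -0.30, SE 0.09, limma BH adjusted p = 0.0327). It remained by far the most abundant enolase in every library.

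A pair of highly expressed enzymes of the middle of the pathway also fell. ALDOA, an aldolase, averaged 235 ± 15.2 RPKM in knockdown and 353 ± 31.1 RPKM in wild type (log2 change -0.59, SE 0.10, limma BH adjusted p = 0.00277). GAPDH, which makes the first NADH of the pathway and is often used for scaling in PCR, averaged 2253 ± 98.8 RPKM in knockdown and 3111 ± 92.0 RPKM in wild type (log2 change -0.47, SE 0.09, limma BH adjusted p = 0.00422). GAPDH and ENO1 were chosen for naming after their values were seen, and with no filter on low values neither passed (adjusted p = 0.0807 and 0.13 in limma). ENO1 also lost its call when any 1 of the 4 libraries was left out. The genes at adjacent steps (TPI1, PGK1, PGAM1 and PKM) had log2 changes from -0.27 to -0.16 and did not pass. Whole reads were not recovered for ALDOA, GAPDH and ENO1, so voom gave no value for their decreases. Of 5 tested genes that set the level of fructose 2,6-bisphosphate or oppose glycolysis, PFKFB4 alone passed, at 1.35 ± 0.105 RPKM in knockdown and 0.457 ± 0.0249 RPKM in wild type (log2 change 0.69, SE 0.11, limma BH adjusted p = 0.00174). PFKFB4 entered the test only through its knockdown mean.

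**Figure D4:**
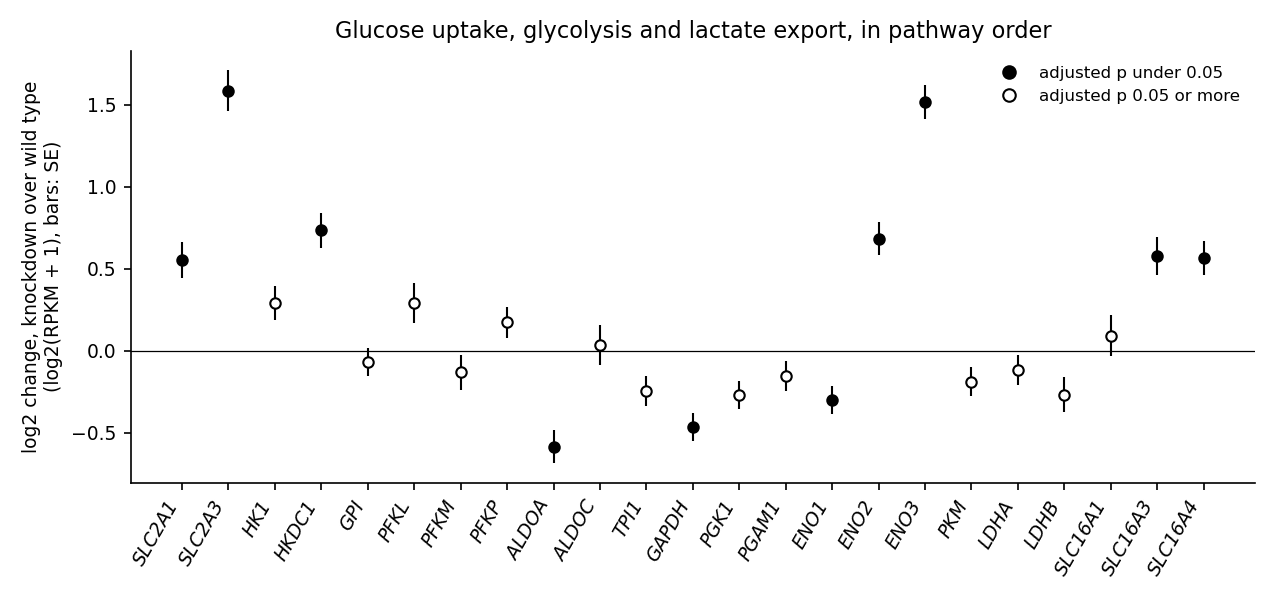
Log2 change, knockdown over wild type (bars, SE), of tested genes of glucose uptake, glycolysis and lactate export in pathway order; filled points have a limma BH adjusted p under 0.05. The filled points above 0 are the transporters SLC2A1 and SLC2A3, HKDC1, ENO2, ENO3 and the monocarboxylate transporter genes SLC16A3 and SLC16A4, and those below 0 are ALDOA, GAPDH and ENO1.

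Among genes of lactate handling, 2 of 7 tested rose and none fell, beside 15.3% higher and 7.03% lower of all tested genes. Under quantile and under cyclic loess normalization, 1 gene of this list passed as lower. SLC16A3, the lactate exporter MCT4 and a HIF target, averaged 15.7 ± 1.43 RPKM in knockdown and 10.2 ± 1.05 RPKM in wild type (log2 change 0.58, SE 0.12, limma BH adjusted p = 0.00683), and SLC16A4, a less studied relative, averaged 15.1 ± 0.252 RPKM in knockdown and 9.88 ± 0.317 RPKM in wild type (log2 change 0.57, SE 0.10, limma BH adjusted p = 0.00382). SLC16A1, encoding MCT1, did not pass (log2 change 0.09, SE 0.13, limma BH adjusted p = 0.646). In the pyruvate dehydrogenase group, 4 of 12 tested genes rose and none fell, beside the same shares of all tested genes (median log2 change 0.20). PDK4, a kinase induced by fasting that acts on the same enzyme as PDK1, averaged 5.41 ± 0.344 RPKM in knockdown and 2.22 ± 0.456 RPKM in wild type (log2 change 1.00, SE 0.13, limma BH adjusted p = 0.000621). MPC1, part of the mitochondrial pyruvate carrier, PDK3, another such kinase, and PC, pyruvate carboxylase, had log2 changes of 0.51, 0.36 and 0.36 (limma adjusted p = 0.026, 0.0427 and 0.0415). Each of these 3 lost its call under quantile normalization (0.37, 0.27 and 0.35). PDK1, at 0.402 ± 0.0821 RPKM in knockdown and 0.568 ± 0.0556 RPKM in wild type (SD, n = 2 each), was the least abundant of the 4 kinase genes.

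In the HIF system itself, 2 of 14 tested genes rose and none fell, near the 15.3% higher and 7.03% lower of all tested genes (median log2 change 0.01). HIF1A was at 68.6 and 73.2 RPKM in the knockdown libraries, against 43.4 and 29.8 RPKM in the wild-type libraries. Both knockdown libraries exceeded both wild-type ones, which differed widely between themselves (log2 change 0.96, SE 0.15, limma BH adjusted p = 0.00194). EGLN1, the main oxygen-sensing prolyl hydroxylase that marks HIF1A for destruction, averaged 5.34 ± 0.0340 RPKM in knockdown and 2.98 ± 0.0697 RPKM in wild type (log2 change 0.67, SE 0.11, limma BH adjusted p = 0.00224). EPAS1, encoding HIF-2 alpha, did not pass (log2 change -0.18, SE 0.10, limma BH adjusted p = 0.244), nor did VHL, the subunit that recognises hydroxylated HIF (log2 change 0.24, SE 0.11, limma BH adjusted p = 0.168). ARNT, the shared partner, had a log2 change of 0.00 (limma adjusted p = 0.985), whose sign turned under all 3 other scalings. EGLN2 averaged 11.9 ± 1.53 RPKM in knockdown and 15.8 ± 1.69 RPKM in wild type and missed the threshold (log2 change -0.38, SE 0.12, limma BH adjusted p = 0.0517), passing with median-ratio size factors (-0.42, adjusted p = 0.0463). EGLN3, itself a HIF target, was at 0.275 and 0.296 RPKM in the knockdown libraries, against 0.455 and 0.560 RPKM in the wild-type libraries, under the filter. HIF activity is set mostly by protein stability, which these data do not measure.

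Of 22 other hypoxia-responsive genes tested, 5 rose, 3 fell and 14 did not pass (median log2 change 0.10), beside 15.3% higher and 7.03% lower of all tested genes. BHLHE40, a transcriptional repressor, averaged 22.2 ± 0.685 RPKM in knockdown and 10.7 ± 0.583 RPKM in wild type (log2 change 0.99, SE 0.10, limma BH adjusted p = 0.000151), and STC2, a secreted stanniocalcin, averaged 2.91 ± 0.102 RPKM in knockdown and 1.13 ± 0.0637 RPKM in wild type (log2 change 0.87, SE 0.11, limma BH adjusted p = 0.00051). ADM, the vasodilator peptide adrenomedullin, moved the other way, at 10.5 ± 1.72 RPKM in knockdown and 21.3 ± 2.73 RPKM in wild type (log2 change -0.97, SE 0.13, limma BH adjusted p = 0.000883). P4HA2, which hydroxylates collagen, averaged 5.34 ± 0.0196 RPKM in knockdown and 3.17 ± 0.0277 RPKM in wild type (log2 change 0.60, SE 0.11, limma BH adjusted p = 0.00381). CAV1 and DDIT4 also rose, with log2 changes of 0.51 and 0.37, and ANGPTL4 and NDRG1 also fell, with log2 changes of -0.59 and -0.53. DDIT4 did not pass with no filter (limma adjusted p = 0.0824), and CAV1 did not pass without knockdown replicate 2 (0.42). CAV1, DDIT4, ANGPTL4 and NDRG1 lay outside the naming rule and were named after their values were seen. Genes of the wider list thus passed in both directions.

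**Figure D5:**
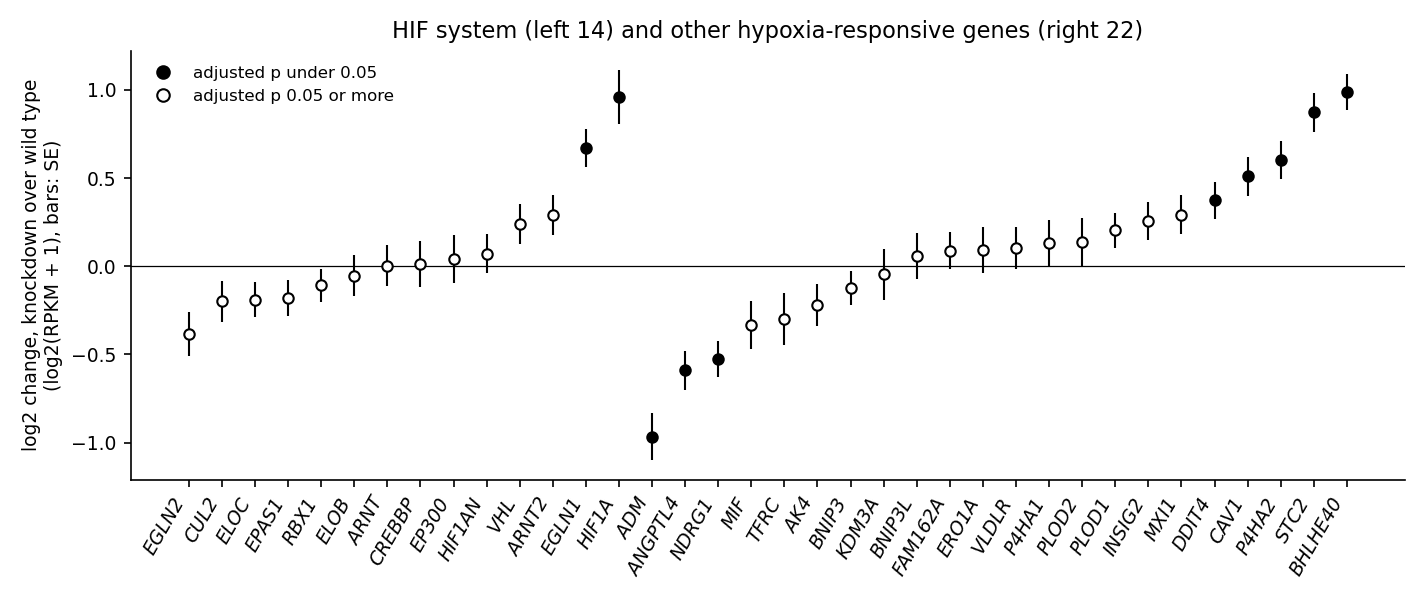
Log2 change, knockdown over wild type (bars, SE), of 14 tested HIF system genes (left) and 22 other tested hypoxia-responsive genes (right), ordered by change within each set; filled points have a limma BH adjusted p under 0.05. HIF1A and EGLN1 are the filled points on the left, and on the right 3 filled points lie below 0 (ADM, ANGPTL4, NDRG1) and 5 above.

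The splicing table held 3768 junction events in 2166 genes, given as PSI, the fraction of reads that use the examined junction. None was in a member. The table lists only events whose spread over the libraries was 0.15 or more, so an event of a member with a smaller spread would not appear. In other genes of the pathways, 11 events in 7 genes were listed (SLC2A6, SLC2A8, SLC16A4, VLDLR, ATP6V0A1, P4HA2 and MXI1), and none passed at an unadjusted p under 0.05 with a difference of 0.1 or more, while 18.4% of 3744 events did. The groups did not overlap in any of the 11, nor in 54.2% of those 3744 events. The VLDLR events all concern the same exon and the MXI1 events mirror each other, so the 11 are not independent. After adjustment 4 events (0.107%) passed.

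The core of the HIF binding motif was then located in RefSeq promoter windows, since most members are known HIF targets and, of the 4 that passed the test, 2 rose and 2 fell. The letters searched were ACGTG and GCGTG on both strands, in the 250 bases before each annotated start (GRCh38.p14). Windows were held for 8 members, 20 windows in all, and not for SLC2A3 and VEGFA. Of the 20, 6 held ACGTG, 6 held GCGTG and 10 held either. Over all 35116 windows of the same length, 18.5% held ACGTG, 32.2% held GCGTG and 43.2% held either. A site that reads CACGTG is counted on each strand. The windows of 5 members are printed 5′ to 3′ on the strand of the gene, with matches on either strand in capitals. They belong to both genes that fell, to SLC2A1, which rose, and to HK2, with both of its windows, and LDHA, with the first of 2. The second HK2 window and the LDHA window held the most matches of the 20. Windows of HK1, PFKP and PDK1, several without a match, are not printed, so those shown do not stand for all 20.
CA9: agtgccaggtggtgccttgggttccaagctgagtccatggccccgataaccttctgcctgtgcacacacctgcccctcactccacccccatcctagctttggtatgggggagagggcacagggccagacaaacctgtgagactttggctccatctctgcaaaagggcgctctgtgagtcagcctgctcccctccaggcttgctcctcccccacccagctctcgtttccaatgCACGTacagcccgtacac
CA12: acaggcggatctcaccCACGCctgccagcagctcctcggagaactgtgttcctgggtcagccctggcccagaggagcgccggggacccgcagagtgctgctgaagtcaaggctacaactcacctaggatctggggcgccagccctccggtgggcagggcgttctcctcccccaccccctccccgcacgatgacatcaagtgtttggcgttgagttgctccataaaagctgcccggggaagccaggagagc
SLC2A1: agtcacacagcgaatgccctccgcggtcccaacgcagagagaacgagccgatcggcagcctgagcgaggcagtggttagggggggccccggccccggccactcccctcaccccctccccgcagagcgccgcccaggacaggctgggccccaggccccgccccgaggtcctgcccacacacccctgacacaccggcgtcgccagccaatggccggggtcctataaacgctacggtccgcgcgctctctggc
HK2, first window: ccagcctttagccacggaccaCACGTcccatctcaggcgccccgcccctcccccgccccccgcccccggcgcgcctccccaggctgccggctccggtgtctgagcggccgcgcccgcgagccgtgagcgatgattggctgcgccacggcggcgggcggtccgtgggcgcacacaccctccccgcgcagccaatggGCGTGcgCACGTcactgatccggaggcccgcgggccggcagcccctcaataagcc
HK2, second window: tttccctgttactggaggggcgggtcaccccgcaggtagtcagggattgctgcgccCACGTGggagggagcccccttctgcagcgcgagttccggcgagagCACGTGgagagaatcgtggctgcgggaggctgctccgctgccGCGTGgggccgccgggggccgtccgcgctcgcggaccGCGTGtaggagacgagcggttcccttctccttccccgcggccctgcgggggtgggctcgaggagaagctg
LDHA: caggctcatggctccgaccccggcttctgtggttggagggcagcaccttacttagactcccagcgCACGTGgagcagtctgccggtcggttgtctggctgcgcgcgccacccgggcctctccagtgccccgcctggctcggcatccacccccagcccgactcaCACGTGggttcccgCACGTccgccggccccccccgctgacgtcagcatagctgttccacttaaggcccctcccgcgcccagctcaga

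The CA9 window (chr9:35673678-35673927, plus strand) held 1 match, ACGTG read on the minus strand, 14 to 18 bases before the start. The CA12 window (chr15:63381847-63382096, minus strand) held 1 GCGTG on the strand opposite to the gene, 230 to 234 bases before the start. The SLC2A1 window (chr1:42958869-42959118, minus strand) held 0 matches, which says only that these letters are not in these 250 bases. The first HK2 window (chr2:74833877-74834126, plus strand) held 3 matches, and the second (chr2:74834920-74835169, plus strand) held 6, the most of the 20 windows. The first LDHA window (chr11:18394313-18394562, plus strand) held 5 and the second 1. SLC2A3, the member with the largest increase, had no window, and whether matches go with changes in level was not tested. A match is a string of letters, and binding was not measured.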

How the data were processed

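Poly-A RNA of A549 cells was sequenced in 2 RBM10 knockdown and 2 wild-type libraries. Per the submitters' processing notes, STAR 2.6.1 and build hg38 were used, with counter, annotation and strand setting not named in the sources used here. Gene expression was deposited in a unit inferred from its values to be RPKM, in which a small fill-in value stands for no reads. The authors deposited PSI as a fraction for events with a spread of 0.15 or more, without read depth.

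Log2(RPKM + 1) was fitted with limma 3.58.1 (R 4.3.3; moderated two-sided tests with a mean-variance trend and no covariate; threshold 0.05 on Benjamini-Hochberg adjusted p) over 10182 genes averaging at least 1 RPKM in either group, and PSI likewise, without trend, over 3744 events. The expression fit was also run on simulated read numbers, and the splicing fit was not. Shares were compared by exact permutation tests. Gene names came from a table for 16921 of 17041 IDs, and loci from GENCODE. Members and lists were chosen with earlier results of these data known. After the tests, 1 gene was taken out of the lists and is not reported here. The rule for naming genes outside the members was up to 4 passing genes a list by size of change, plus named HIF genes. SLC2A6, SLC2A8, PFKL, PFKM, TPI1, PGK1, PGAM1, PKM and SLC16A1 were added after their values were seen, as were genes so marked elsewhere. SLC2A14 also lay outside the rule.

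Whole reads were recovered for 98.6% of genes, since a gene's RPKM values are multiples of 1 read. The recovered numbers are the smallest that give the values. This step was run in 3 versions. The tolerance for a whole number was first 1e-07 plus 1e-08 of the number, and was then set to a flat 0.0002 after the first results had been seen. Both versions took the fill-in value of a lone library without reads for reads. The version used identifies it as a fixed multiple of 1 read, which applied to 769 genes, and was made after the results of the other versions had been seen. The members' reads were the same in all 3.

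Alternatives were other pseudocounts, filters and scalings, no trend, a replicate block, and each library left out. Same-numbered libraries' deviations from group means correlated at -0.444.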

Additional observations from a re-analysis of the deposited data

How the results depend on the processing

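Of 150 alternative values of the members' log2 changes, 139 kept direction and call, 3 lost the call, 5 gained one and 3 changed sign. The 2 members higher became 4 under cyclic loess normalization (HK1 and PFKP added) and 4 with crossed replicate numbers as a block. Leaving out each library gave 1 to 2 higher and 1 to 2 lower, and 1 was lower with a filter at 5 RPKM, where fewer genes, CA9 not among them, are tested. Genes called in all numbered 1423 with that filter and 4196 with the crossed block, against 2271. With the replicate block they numbered 1718, with 2 members higher and 2 lower, and the labels do not say that a number marks a shared culture. The CA9 share differed by -7.85 points under quantile normalization. VEGFA turned to -0.051 (quantile) and -0.00067 (cyclic loess), and ran from -0.031 (without knockdown replicate 1) to 0.12 over the libraries left out. ARNT turned to -0.065 (quantile), -0.026 (cyclic loess) and -0.027 (median-ratio size factors), and ran from -0.081 to 0.089 over the libraries left out. SLC16A1 turned to -0.0078 (quantile) and ran from -0.038 to 0.22 over the libraries left out. Over members and the other named genes, 816 of 917 values kept direction and call and 73 lost the call. The crossed block, the fit with no filter and a pseudocount of 0.1, and voom were chosen after seeing the data. Voom on recovered reads called 2853 genes in the version used, 1957 in the first and 1232 in the flat-tolerance version. SLC2A1 had adjusted p = 0.0056, 0.034 and 0.0588 in these, so its call was lost in the last, and CA12 had 0.00579, 0.0293 and 0.0445. The alternatives planned for members' splicing events gave no value, since no event was listed. Except where a value above shows it, the cause was not tested. With 2 libraries a group, precision is limited, and HK2 and PDK1 rest on few reads.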

Other observations

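Some further genes of these pathways lay under the filter of the main test, and their values are given without a call from it. TXNIP, an arrestin-like protein that limits glucose uptake and is induced by glucose, was at 0.342 and 0.474 RPKM in knockdown and 0.0552 and 0.0625 RPKM in wild type. Its relative ARRDC4 was at 0.329 and 0.327 RPKM in knockdown and 0.0562 and 0.132 RPKM in wild type. SLC2A12, a glucose transporter gene, was at 0.240 and 0.278 RPKM in knockdown and 0.0512 and 0.0697 RPKM in wild type. Few reads lay behind these values. In wild type they were 7 and 8 for TXNIP, 8 and 19 for ARRDC4, and 8 and 11 for SLC2A12. In knockdown they were 37 and 58, 40 and 45, and 32 and 42, in the same order. In each of these 3 genes both knockdown libraries lay above both wild-type libraries, as in 35.8% of all 17041 genes. With no filter on low values, their adjusted p in limma was 0.0227, 0.033 and 0.0223, where 7.18% of 17041 genes were higher. PGF, a VEGF relative, was at 0.609 and 0.657 RPKM in knockdown and 0.181 and 0.318 RPKM in wild type (adjusted p = 0.0435 there). These 4 genes were named after their values were seen.

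Among the pathway events that did not pass, an alternative 5′ splice site of SLC2A6 was used at 81.1% and 75.6% in knockdown and 53.8% and 63.5% in wild type. A cassette exon junction of SLC16A4 was used at 79.5% and 83.8% in knockdown and 61.7% and 64.4% in wild type. The groups did not overlap in either, nor in 54.2% of 3744 events tested, and limma gave unadjusted p of 0.0651 and 0.0671. Read depth behind these percentages is unknown.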
